A study of Mus musculus with 16 samples.

Results

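The genes described here are the 5 subunits of the transcription factor NF-κB (Nfkb1, Nfkb2, Rela, Relb and Rel) and 5 inhibitors of the IκB family (Nfkbia, Nfkbib, Nfkbie, Nfkbiz and Bcl3), 10 of the 54838 genes counted. They were taken by name as members of these families. All 10 passed the filter on low counts, with 180 to 13447 counts per library. RNA was sequenced from bone marrow-derived macrophages, made from the marrow of mouse femurs and tibiae with L929-conditioned medium. Every group, controls included, came from mice of strain label C57BL/6J that lack apolipoprotein E, with B6.129P2-Apoetm1Unc/J as genotype label. The 4 groups of 4 libraries received DMSO, TNFα at 50 ng/ml for 24 h, or the same TNFα after 1 h with 5 µM of TMP195 or with TPCA-1 at 500 nM. TMP195 inhibits class IIa histone deacetylases, and TPCA-1 inhibits IKK2, the kinase that marks IκB proteins for destruction. They are not analogs of each other. The series title links the class IIa enzyme HDAC9 to activation of IKK. The labels state neither whether replicates came from separate animals or cultures, so p-values measure only the spread between these libraries, nor whether cells given TNFα alone also received DMSO.

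NF-κB subunits bind DNA as dimers. Nfkb1 and Nfkb2 encode long precursors that are cut to a DNA-binding subunit without a transactivation domain, while Rela, Relb and Rel encode subunits that carry one. In resting macrophages the typical IκB proteins, encoded by Nfkbia, Nfkbib and Nfkbie, hold the dimers in the cytoplasm. TNFα activates IKK, which phosphorylates these inhibitors so that they are degraded and the dimers enter the nucleus. Several of the family's own genes are textbook targets of NF-κB, which makes the pathway a feedback loop. The proteins of Nfkbiz and Bcl3 are atypical IκBs that act in the nucleus and can raise or lower transcription. The measurements here are of RNA only, so neither IκB degradation nor nuclear entry was measured.

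Counts on genes were 7.49 to 31.6 per library (in units of 1e6), and the lowest was TPCA-1+TNFα 2, where 44.0% of reads were unmapped against at most 7.11% elsewhere. Results for TPCA-1 are given with and without this library where it matters. Apoe itself had 1 to 11 reads per library. The 7 macrophage markers examined, Adgre1, Csf1r, Cd68, Itgam, Mertk, Lyz2 and Fcgr1, were all present, but their level differed between groups. In counts per 1e6 counted reads (CPM, scaled between libraries by the TMM method) they summed to 15830 to 24620 in DMSO, 17140 to 25080 with TNFα, 12130 to 17300 with TMP195 and 12400 to 20370 with TPCA-1. By the edgeR test used below, 1 of the 7 was called higher and 3 lower with TNFα against DMSO, 1 lower with TMP195 against TNFα alone and 4 lower with TPCA-1 against TNFα alone (median log2 fold change -0.72). Of the markers of B, T and NK cells, mast cells, dendritic cells and erythroid cells, none exceeded 1.44 CPM in any library. S100a8 made up nearly all of the neutrophil list, whose sum was 0.884 to 2.27 CPM in DMSO, 47.0 to 88.2 with TNFα, 25.2 to 48.0 with TMP195 and 13.8 to 41.9 with TPCA-1. The defining neutrophil markers S100a9, Ly6g, Elane and Ngp were at 0 in every library. Pecam1 carried the stromal and endothelial list, whose sum was 15.7 to 40.0 CPM with TPCA-1 and 3.86 to 10.6 in the other groups. The fibroblast markers Col1a1, Col1a2, Dcn and Pdgfra stayed at or under 0.273 CPM, and Cdh5, of the same list, was 0.0486 to 1.35 CPM over all libraries. The part of these differences in the results was not tested.

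Promoter sequences are shown because TNFα raised the RNA of several of these genes together. In the RefSeq promoter table (build GRCm38.p6), which gives 250 bases before to 50 bases after each transcription start, 7 of the 10 genes were found: Nfkb2, Rela, Rel, Nfkbia, Nfkbib, Nfkbie and Bcl3. Nfkb1, Relb and Nfkbiz were not in the table. The κB consensus, the 10-base motif that NF-κB dimers bind, was searched on both strands. It was present in the promoters of 5 of these 7 genes, against 9.55% of all 27025 genes in the table. A stricter form contained in that consensus, GGGA and TTCC with any 2 bases between them, was present for 2 of the 7, Nfkb2 and Nfkbia, against 1.63% of all genes. The promoters are written in the direction of transcription with every match to the consensus in capitals. The first runs through the 250 bases before the start of Nfkbia (minus strand) and the other through those of Nfkbie (plus strand).
Nfkbia promoter at chr12:55492648-55492897: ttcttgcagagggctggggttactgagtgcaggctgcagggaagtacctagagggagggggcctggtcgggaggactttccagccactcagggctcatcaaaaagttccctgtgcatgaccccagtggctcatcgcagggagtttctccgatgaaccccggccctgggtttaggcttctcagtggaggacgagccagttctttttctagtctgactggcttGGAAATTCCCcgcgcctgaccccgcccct
Nfkbie promoter at chr17:45555450-45555699: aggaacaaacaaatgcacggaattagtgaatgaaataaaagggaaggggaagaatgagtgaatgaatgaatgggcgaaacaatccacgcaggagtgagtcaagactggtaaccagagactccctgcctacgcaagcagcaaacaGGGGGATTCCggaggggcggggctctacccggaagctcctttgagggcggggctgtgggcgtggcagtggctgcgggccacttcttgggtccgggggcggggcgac

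For the other genes 30-base windows around a match are shown, so that the match can be set beside the response of its gene. Nfkb2 had 3 promoters in the table, and not all of its matches are shown. The first promoter had matches 39 and 11 bases before its start. The next had matches to the stricter form 236 bases before its start and at position 11 after it. The last of these sites also lies 225 bases before the start of the last promoter. The windows of Nfkb2 show the site at 39 bases and this one. Both windows are on the plus strand and lie inside the longer gene of the GENCODE annotation. The Rel match began 92 bases before the start and the Bcl3 match 3 bases after it, both on the minus strand.
Nfkb2 site at chr19:46304688-46304717: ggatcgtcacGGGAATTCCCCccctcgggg
Nfkb2 site at chr19:46305695-46305724: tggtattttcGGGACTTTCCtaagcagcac
Rel site at chr11:23771042-23771071: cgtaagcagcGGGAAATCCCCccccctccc
Bcl3 site at chr7:19822734-19822763: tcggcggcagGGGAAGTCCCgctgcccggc
A match describes these letters only. Nfkbia, Nfkb2 and Nfkbie, which held one, rose with TNFα, as described next. Rel and Bcl3 also held one and did not pass the test, and Nfkbib rose with no match in its window.

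TNFα for 24 h raised 5 of the 10 genes past an adjusted p of 0.05 (edgeR quasi-likelihood test, adjusted over 12612 genes), where 10.9% of all genes tested were called higher and 23.4% in either direction. Those that rose were the 3 typical IκB genes and 2 subunit genes, Nfkb2 and Relb. The median log2 fold change of the 10 genes was 0.45, against 0.0018 over all genes. Groups did not overlap for 4 of the 10 (TNFα higher), against 12.9% of all genes. Over all genes 1377 were called higher and 1568 lower, or 1096 and 1885 when libraries were scaled by their totals alone. In bulk RNA such as this, fewer cells of a type and less RNA per cell cannot be told apart.

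**Figure D1:**
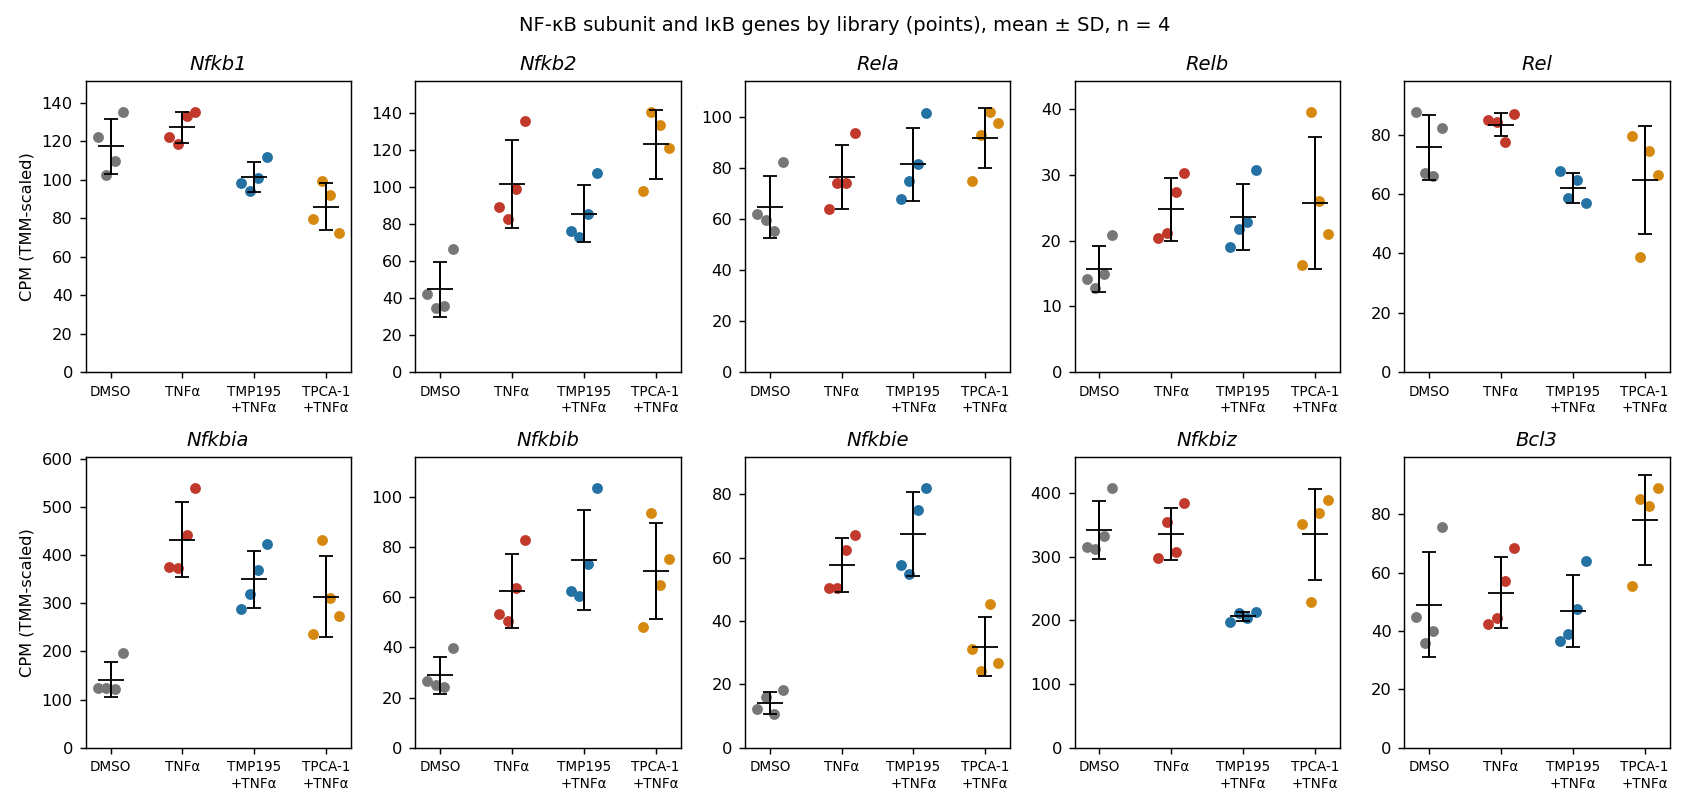
Level of each gene in every library, as TMM-scaled CPM on a linear axis that starts at 0, with points for libraries and bars for mean ± SD of 4 libraries per group. The 4 TNFα libraries lie above all 4 DMSO libraries for Nfkb2, Nfkbia, Nfkbib and Nfkbie, and the 4 TMP195+TNFα libraries lie in a narrow band below all other libraries for Nfkbiz.

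Nfkbie (ENSMUSG00000023947, chromosome 17, 45555703 to 45563169, plus strand), which encodes IκBε, had the largest response of the family. Its level in libraries 1 to 4 was 12.1, 15.9, 10.5 and 18.1 CPM in DMSO and 50.4, 50.4, 62.3 and 67.3 CPM with TNFα. Every TNFα library was above every DMSO library, and the log2 fold change was 2.02 ± 0.21 (SE), about 4.07-fold (adjusted p = 1.81e-06 by edgeR). With TMP195 before TNFα the libraries held 57.7, 54.8, 74.9 and 82.0 CPM, overlapping TNFα alone, and the difference of 0.23 ± 0.20 had a 95% interval of -0.19 to 0.65 and did not pass the test (adjusted p = 0.647). With TPCA-1 they held 31.0, 24.3, 45.3 and 26.8 CPM. All 4 were below every library of TNFα alone and above every DMSO library. Nfkbie fell by 0.85 ± 0.20 on the log2 scale against TNFα alone (adjusted p = 0.007), and stayed 1.18 ± 0.21 above DMSO (adjusted p = 0.000352). The 3 values with TNFα share its 4 libraries, so they are not independent of each other.

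Nfkbia (ENSMUSG00000021025, chromosome 12, 55489410 to 55492647, minus strand) encodes IκBα, the inhibitor known for fast degradation and resynthesis. In DMSO it stood at 124, 125, 121 and 196 CPM and with TNFα at 375, 374, 442 and 539.9 CPM. The lowest TNFα library was above the highest DMSO library, which was DMSO 4, and the log2 fold change was 1.61 ± 0.20 (adjusted p = 1.14e-05, edgeR). With TMP195 the libraries read 288, 319.9, 369 and 423 CPM and with TPCA-1 237, 431, 311 and 275 CPM. Both sets overlapped TNFα alone. The difference was -0.31 ± 0.19 for TMP195 (adjusted p = 0.459) and -0.47 ± 0.20 for TPCA-1 (adjusted p = 0.105), and neither passed. The TPCA-1 call depended on 1 library and on the model. Fitted without the shallow TPCA-1+TNFα 2, where Nfkbia was highest of its group, it was -0.66 (adjusted p = 0.0233) and passed. With all 16 libraries in the fit it also passed with no filter on low counts (adjusted p = 0.0395). With limma-voom, which here gave each library its own quality weight, it passed too (adjusted p = 0.0294).

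Nfkbib (ENSMUSG00000030595, chromosome 7, 28758251 to 28767512, minus strand), which encodes IκBβ, rose as well. Its levels were 26.5, 25.2, 24.2 and 39.9 CPM in DMSO and 53.3, 50.5, 63.5 and 82.8 CPM with TNFα, groups that did not overlap. The log2 fold change was 1.11 ± 0.23 (adjusted p = 0.00138, edgeR). Under TMP195 it read 62.5, 60.5, 73.3 and 104 CPM and under TPCA-1 48.3, 93.7, 64.7 and 75.3 CPM, with overlap in both cases. Against TNFα alone these were differences of 0.26 ± 0.22 (95% interval -0.21 to 0.73) and 0.17 ± 0.22 (95% interval -0.30 to 0.64), neither past the threshold. Without the shallow TPCA-1+TNFα 2, the highest of its group, the TPCA-1 difference was -0.0022. Ccer2 and Sirt2 overlap this gene on the other strand, and reads on that strand were at most 1.1% of the gene's reads.

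Under TPCA-1 the point values against TNFα alone were -0.85 ± 0.20 for Nfkbie, -0.47 ± 0.20 for Nfkbia and 0.17 ± 0.22 for Nfkbib. Without the shallow library they were -0.75 ± 0.21, -0.66 ± 0.19 and -0.0022 ± 0.23, so that Nfkbie and Nfkbia lay within their errors of each other. Differences between genes were not tested. The direct comparison of the inhibitors, TPCA-1+TNFα against TMP195+TNFα, called Nfkbie lower by 1.07 ± 0.20 (adjusted p = 0.000878, edgeR). Nfkbia at -0.16 ± 0.19 and Nfkbib at -0.10 ± 0.22 did not pass (adjusted p = 0.574 and 0.786).

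Nfkb2 (ENSMUSG00000025225, chromosome 19, 46304320 to 46312385, plus strand), the precursor of the non-canonical pathway, was the subunit gene with the largest rise. DMSO libraries held 42.3, 34.5, 35.8 and 66.5 CPM and TNFα libraries 89.3, 82.7, 99.0 and 136 CPM. The groups did not overlap, although DMSO 4 was well above the other DMSO libraries, and the log2 fold change was 1.18 ± 0.21 (adjusted p = 0.000338, edgeR). Neither inhibitor lowered it past the test: TMP195 left 76.4, 72.9, 85.6 and 107 CPM and TPCA-1 97.6, 140.4, 133 and 121 CPM. Against TNFα alone this was -0.25 ± 0.20 (adjusted p = 0.61) with TMP195 and 0.27 ± 0.20 (adjusted p = 0.362) with TPCA-1. The inhibitors themselves differed by 0.52 ± 0.20 with TPCA-1 higher, which missed the threshold (adjusted p = 0.0682, edgeR). The call changed in 8 of 17 alternatives, among them DESeq2 (adjusted p = 0.0452) and limma-voom (adjusted p = 0.0129), where it passed. Without the shallow TPCA-1+TNFα 2 the difference was 0.45 ± 0.22 and did not pass (adjusted p = 0.155, edgeR). Psd overlaps Nfkb2 on the other strand, which held 0.214% to 1.98% of its reads.

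Relb (ENSMUSG00000002983, chromosome 7, 19606217 to 19629438, minus strand), the partner of the processed Nfkb2 product, was among the genes of the family with the lowest levels per length. Its values were 14.2, 12.8, 14.9 and 20.8 CPM in DMSO and 20.4, 21.2, 27.4 and 30.3 CPM with TNFα. The groups overlapped, since DMSO 4 exceeded TNFα 1. By replicate number the TNFα library was above the DMSO library every time, and how many of all genes do so was not counted. The rise of 0.67 ± 0.23 passed narrowly (adjusted p = 0.0483, edgeR). It missed the threshold without any 1 of DMSO 1, 2 or 3 or of TNFα 2, 3 or 4, with an adjusted p of up to 0.122 (without TNFα 4), and it also missed it with upper-quartile scaling (0.0715) and with library totals alone (0.0795). With TMP195 Relb read 19.1, 21.7, 22.9 and 30.7 CPM and with TPCA-1 16.4, 39.6, 26.1 and 20.99 CPM. The highest of these was the shallow library. Against TNFα alone the differences were -0.072 ± 0.23 with TMP195 and 0.031 ± 0.23 with TPCA-1, or -0.24 for TPCA-1 without the shallow library, and none passed.

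Nfkb1 (ENSMUSG00000028163, chromosome 3, 135584655 to 135691547, minus strand), the precursor of the canonical dimer's DNA-binding partner, did not change past the test with TNFα but was lower with TPCA-1. It stood at 122, 102, 109.7 and 135 CPM in DMSO and 122, 119, 133 and 135 CPM with TNFα, a difference of 0.12 ± 0.11 (95% interval -0.12 to 0.35, adjusted p = 0.514, edgeR). With TPCA-1 the libraries held 79.6, 99.4, 92.0 and 72.3 CPM. All 4 were below every library of TNFα alone and of DMSO. Nfkb1 fell by 0.57 ± 0.11 against TNFα alone (adjusted p = 0.00165) and by 0.45 ± 0.11 against DMSO (adjusted p = 0.00551). TMP195 gave 98.3, 94.1, 101 and 112 CPM, also with no overlap with TNFα alone. That difference of -0.33 ± 0.11 missed the threshold (adjusted p = 0.0965) and passed it with DESeq2 (0.0328), limma-voom (0.0123) and a fit of only these 2 groups (0.0406). Gm43430, a predicted gene, lies within Nfkb1 on the same strand, where reads of overlapping genes cannot be told apart.

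Rel (ENSMUSG00000020275, chromosome 11, 23736847 to 23770970, minus strand) encodes c-Rel, a subunit prominent in blood cells. Its levels ran 66.1 to 87.7 CPM in DMSO and 77.8 to 87.0 CPM with TNFα, and the difference of 0.14 ± 0.16 did not pass (adjusted p = 0.615, edgeR). TMP195 gave 67.7, 58.7, 64.8 and 57.0 CPM, all below the lowest library of TNFα alone. The log2 difference was -0.43 ± 0.16, which missed the threshold (adjusted p = 0.145) but passed in a fit of only the 2 groups (0.0165), with limma-voom (0.0338) and in a fit of all groups without TPCA-1+TNFα 2 (0.0159), and, more narrowly, with the replicate number as a block (0.0478). TPCA-1 gave 79.7, 38.8, 74.4 and 66.5 CPM, where the lowest value was that of the shallow library. Against TNFα alone the difference was -0.36 ± 0.16 with it and -0.19 without it, and neither passed. Without TPCA-1+TNFα 1, the highest of the group, it was -0.48 and passed narrowly (adjusted p = 0.0487).

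Rela (ENSMUSG00000024927, chromosome 19, 5637483 to 5648130, plus strand) encodes the transactivating subunit of the canonical dimer. By SD over the 16 libraries Nfkb1 varied least (0.26, Rela 0.28). Rela had the narrowest range, 0.88 on the log2 scale, beside 0.90 for Nfkb1 and 2.95 for Nfkbie. Its levels ran 55.3 to 82.5 CPM in DMSO, 63.7 to 93.8 CPM with TNFα, 67.8 to 101 CPM with TMP195 and 75.0 to 102 CPM with TPCA-1. The groups overlapped throughout. TNFα differed from DMSO by 0.24 ± 0.15 (95% interval -0.089 to 0.56) and the inhibitors from TNFα alone by 0.091 ± 0.15 and 0.26 ± 0.15, and none passed. Against DMSO, the rise with TPCA-1+TNFα of 0.50 ± 0.16 passed (adjusted p = 0.0208, edgeR), and missed the threshold without any 1 of DMSO 1, 2 or 3 or TPCA-1+TNFα 3 or 4 (adjusted p up to 0.0757, without DMSO 3).

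Nfkbiz (ENSMUSG00000035356, chromosome 16, 55811375 to 55838899, minus strand) encodes IκBζ, a nuclear regulator needed for a group of secondary response genes such as Il6. It was the 1 gene of the 10 called with TMP195 against TNFα alone, a comparison in which 3% of all genes were called lower and 5.95% in either direction. DMSO libraries held 315, 311, 333 and 408 CPM and TNFα libraries 297, 353, 307 and 383 CPM, which overlapped, and their difference was -0.028 ± 0.14 (95% interval -0.33 to 0.27). TMP195 gave 197, 211, 203 and 214 CPM. All 4 were below every library of DMSO and of TNFα alone. Nfkbiz fell by 0.70 ± 0.14 against TNFα alone (adjusted p = 0.00716, edgeR), to 0.615 of its level, and by 0.73 ± 0.14 against DMSO (adjusted p = 0.000822). With TPCA-1 the levels were 352, 229, 368 and 389 CPM, and the difference from TNFα alone was -0.0014 ± 0.14 (95% interval -0.30 to 0.30), or 0.13 without the shallow library, which was the lowest. The inhibitors differed directly by 0.70 ± 0.14 with TPCA-1 higher (adjusted p = 0.00157), and none of the TPCA-1 libraries overlapped those with TMP195.

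Bcl3 (ENSMUSG00000053175, chromosome 7, 19808462 to 19822770, minus strand) encodes the atypical IκB that binds dimers made from the Nfkb1 and Nfkb2 products. Levels were 44.9, 35.9, 39.9 and 75.5 CPM in DMSO, 42.4, 44.6, 57.0 and 68.5 CPM with TNFα and 36.7, 39.1, 47.6 and 63.9 CPM with TMP195. These groups overlapped, and TNFα differed from DMSO by 0.12 ± 0.24 (adjusted p = 0.784, edgeR). TPCA-1 gave 55.3, 85.3, 82.8 and 89.0 CPM, where 3 of the 4 libraries were above every library of the other groups. The value was 0.55 ± 0.24 against TNFα alone, which did not pass (adjusted p = 0.112), 0.74 ± 0.24 against TMP195+TNFα (adjusted p = 0.0298) and 0.67 ± 0.24 against DMSO (adjusted p = 0.04). The value against TNFα alone passed with limma-voom (adjusted p = 0.0246) and without TPCA-1+TNFα 1 (adjusted p = 0.0449), the lowest library of the group. The calls against TMP195+TNFα and DMSO were narrow. The first was lost without any 1 of TMP195+TNFα 1, 2 or 3 or TPCA-1+TNFα 2, 3 or 4 (adjusted p up to 0.0956, without TMP195+TNFα 1), and the other without any 1 of DMSO 1, 2 or 3 or TPCA-1+TNFα 2, 3 or 4 (up to 0.12, without DMSO 2).

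**Figure D2:**
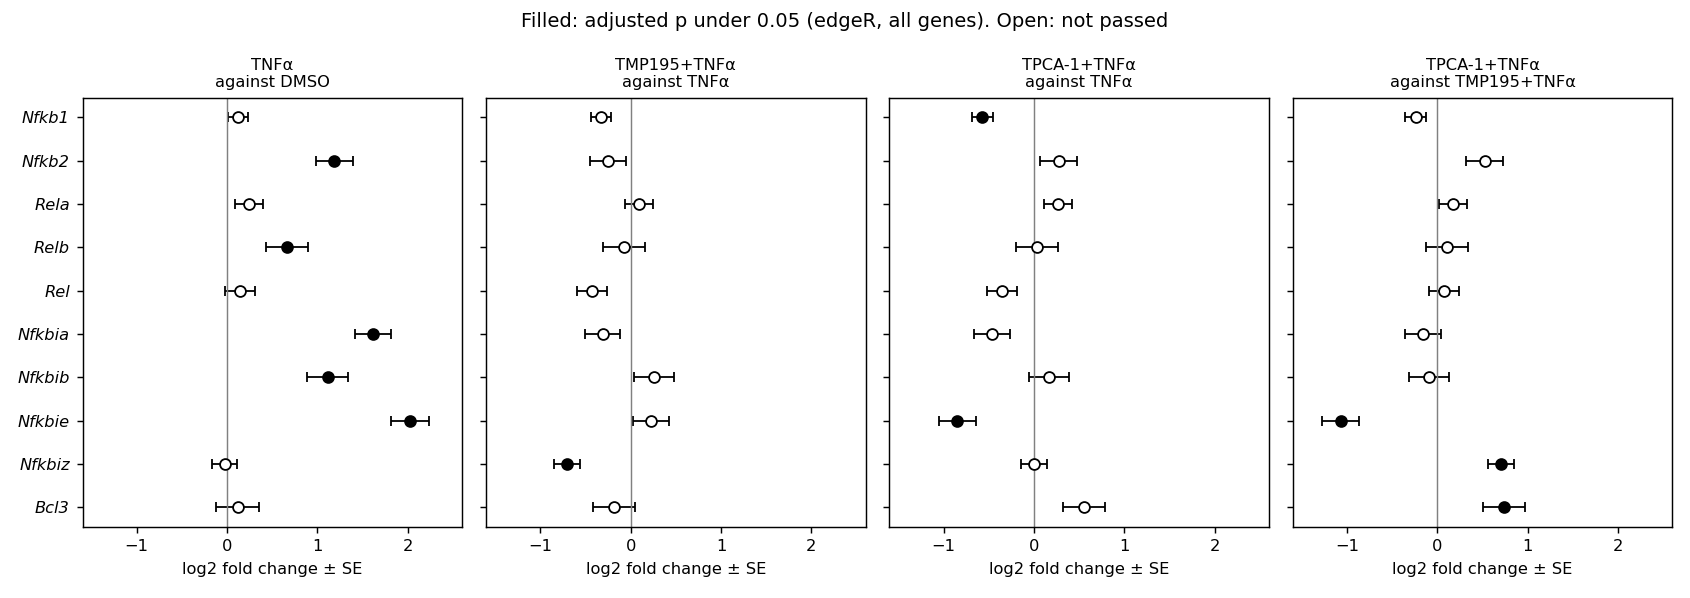
Log2 fold change ± SE of each gene in 4 comparisons of 4 libraries against 4, with filled points for an adjusted p under 0.05 (edgeR). TNFα against DMSO has 5 filled points, all to the right, TMP195 against TNFα alone has Nfkbiz and TPCA-1 against TNFα alone has Nfkb1 and Nfkbie, all to the left.

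Read across the family, TMP195 before TNFα lowered 1 of 10 genes and TPCA-1 lowered 2 of 10, Nfkb1 and Nfkbie, where 9.72% of all genes were called lower with TPCA-1 and 19.4% in either direction. The median log2 fold change of the 10 genes was -0.22 with TMP195 (0.015 over all genes) and 0.01 with TPCA-1 (0.022 over all genes). Over all genes 372 were called higher and 378 lower with TMP195 (499 and 285 with library totals alone), and 1220 and 1226 with TPCA-1 (1701 and 1006 with upper-quartile scaling). Both comparisons use the same 4 TNFα libraries. With TMP195, 3 of 10 genes (Nfkb1, Rel and Nfkbiz) had groups that did not overlap, all lower, against 7% of all genes. With TPCA-1 there were 2, against 9.75%. The count for TPCA-1 depended on single libraries and tools: it was 3 without the shallow library, 4 without TPCA-1+TNFα 1, 3 with no filter and 4 with limma-voom. Over all genes these fits called 1952, 3313, 2235 (of 25039 tested) and 3212 in the same order, where the main fit called 2446. For TMP195 the count of the 10 genes was 2 with DESeq2, 3 with limma-voom and 2 (Rel and Nfkbiz) with the replicate number as a block. Over all genes these fits called 1209, 1778 and 1699, where the main fit called 750. By replicate number, the TMP195 library was below the TNFα library every time for Nfkb1, Nfkb2, Rel, Nfkbia, Nfkbiz and Bcl3. It was above it every time for Rela, Nfkbib and Nfkbie, and Relb went both ways. How many of all genes keep 1 direction in this way was not counted. In the direct comparison of the inhibitors 3 of 10 were called, Nfkbiz and Bcl3 higher and Nfkbie lower with TPCA-1, where 12.6% of all genes were called higher, 13.1% lower and 25.7% in either direction. Nfkb1 at -0.24 ± 0.11 did not pass (adjusted p = 0.122, edgeR). Without the shallow library Nfkb1 was called lower (-0.32, adjusted p = 0.0474) and Bcl3 was no longer called (adjusted p = 0.0673). That fit called 2868 of all genes, where 3246 were called with the library.

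Compared with DMSO, 5 of 10 genes were called with TMP195+TNFα, where 27.5% of all genes were called. Nfkb2 (0.94 ± 0.21), Nfkbia (1.31 ± 0.20), Nfkbib (1.37 ± 0.23) and Nfkbie (2.25 ± 0.21) were higher and Nfkbiz was lower. Relb at 0.59 ± 0.23 did not pass (adjusted p = 0.0705, edgeR). With the replicate number as a block 7 were called, with Relb (0.59, adjusted p = 0.0281) and Rela (0.32, adjusted p = 0.0145) added. The block fit called 4622 of all 12612 genes, where 3463 were called without the block. With TPCA-1+TNFα, 8 of 10 were called, where 30.3% of all genes were called. Nfkb1 was lower, while Nfkb2 (1.46 ± 0.21), Nfkbia (1.15 ± 0.20), Nfkbib (1.28 ± 0.23) and Nfkbie were higher, as were Rela, Relb (0.70 ± 0.24) and Bcl3. The Relb call was lost without any 1 of DMSO 1, 2 or 3 or TPCA-1+TNFα 2 or 3 (adjusted p up to 0.148 by edgeR, without TPCA-1+TNFα 2). The count was 6 without the shallow library, and it fell to 5 without any 1 of DMSO 1, 2 or 3 or TPCA-1+TNFα 3. Over all genes 3820 were called, 3352 without the shallow library and 2933 to 3533 without 1 of those others. These comparisons share the DMSO libraries with that of TNFα alone. The 3 typical IκB genes and Nfkb2 therefore stood above DMSO in all 3 groups given TNFα.

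**Figure D3:**
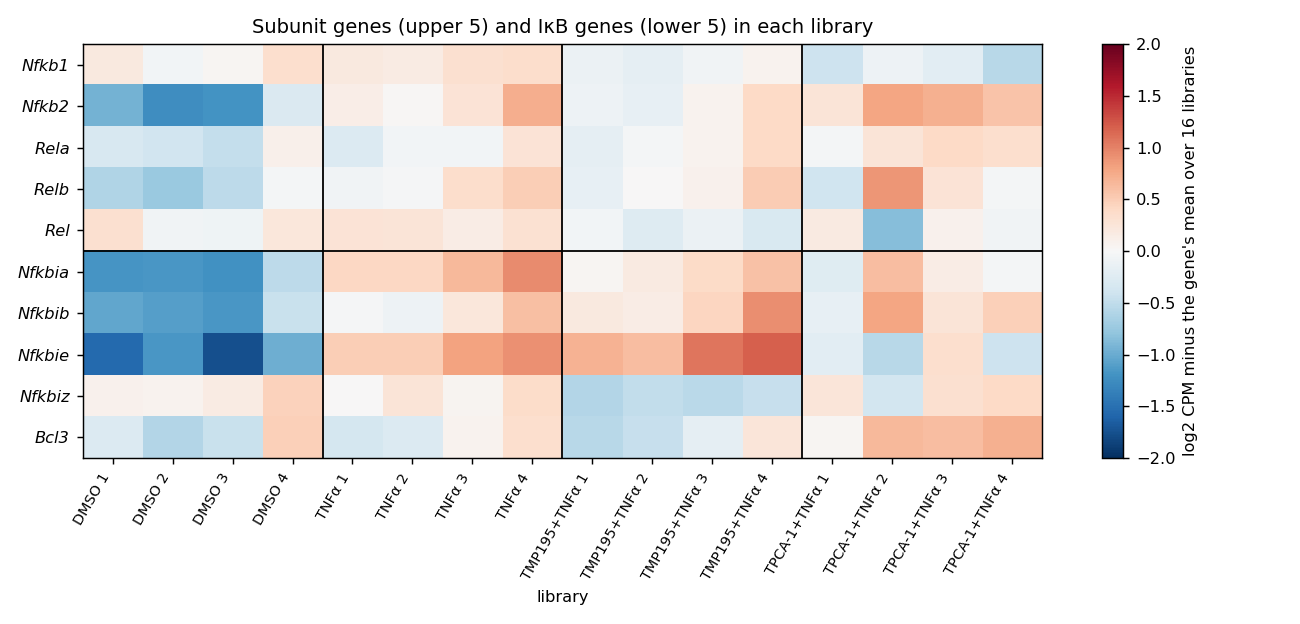
Log2 CPM of each gene in each library minus the gene's mean over 16 libraries, subunit genes in the upper rows and IκB genes in the lower ones, with red above and blue below that mean. Nfkb2, Nfkbia, Nfkbib and Nfkbie are blue in the DMSO libraries, and Nfkbiz is blue across TMP195+TNFα. Among other genes, TPCA-1+TNFα 2 is the highest of its group for Relb and Nfkbia and the lowest for Rel and Nfkbiz.

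Libraries also differed within groups in a way shared by the family. Replicate 4 was the highest library for 9 of 10 genes in DMSO, 10 of 10 with TNFα and 9 of 10 with TMP195, but for 2 of 10 with TPCA-1. Over all genes tested, replicate 4 was highest for 35.1%, 37.3%, 36.0% and 16.5% in the same groups. In TPCA-1+TNFα the shallow library was the highest for 5 of 10 genes and the lowest for 3, against 34.2% and 36.9% of all genes. The part of these shifts in the results was not tested.

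Levels can be compared between genes only per length, and for this transcripts per 1e6 transcripts (TPM) were computed from the length of all exons of a gene combined. Nfkbia ranked first in every group, at a mean of 243 TPM in DMSO, 709 with TNFα, 609 with TMP195 and 509.7 with TPCA-1. Nfkbiz ranked next, at 188, 176, 115 and 175 TPM. The ranges of Nfkbia and Nfkbiz over libraries overlapped in DMSO and did not in the groups given TNFα. On this length Relb was lowest in every group, at 11.2 TPM in DMSO and 16.9 with TNFα, and in DMSO its range overlapped that of Nfkbie, which stood at 12.9 TPM. With the longest transcript as length Nfkbie was the lowest in DMSO (10.2 TPM, Relb 10.3), and Relb in the other groups. In DMSO Nfkb2 (27.0), Nfkb1 (26.9) and Rel (28.1) also did not separate beyond their ranges, nor did Rela (58.3) and Bcl3 (54.8). The value of Nfkb1 depends on the length used: with the longest transcript in place of all exons it was 60.9 TPM in DMSO and moved from rank 8 to rank 3.

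**Figure D4:**
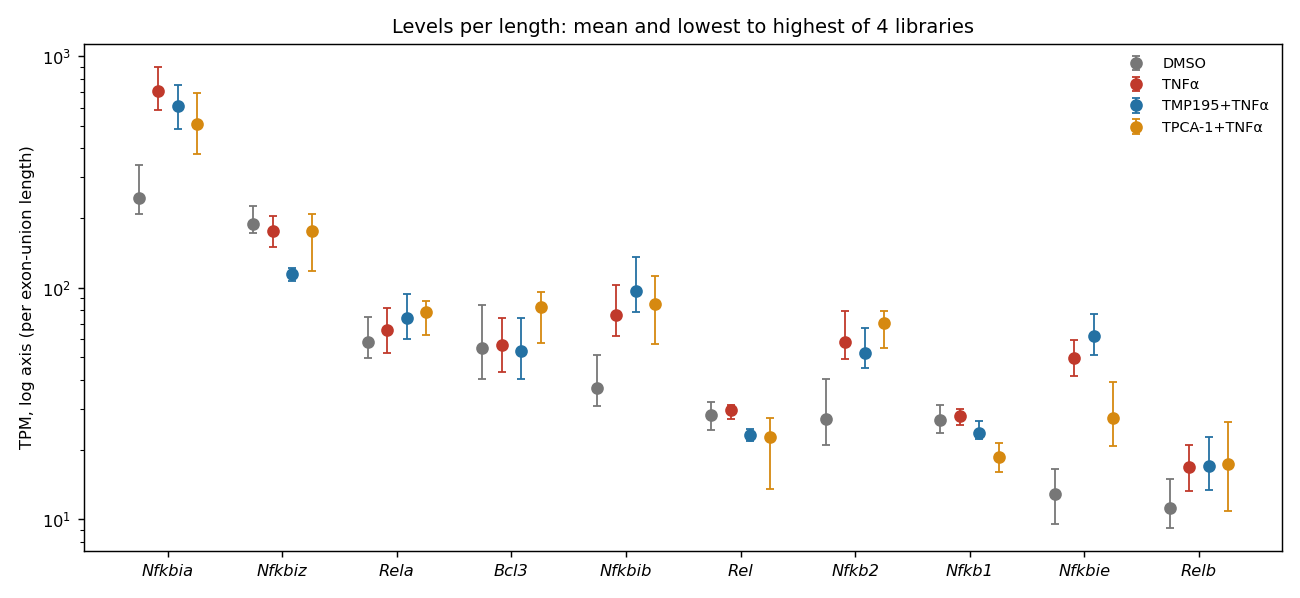
Level per length of each gene (TPM from the combined exon length, log axis), with points for the mean of 4 libraries and bars from the lowest to the highest library. On this length Nfkbia is the highest gene in every group and Relb the lowest, and Nfkbie spans the widest range of group means.

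Summed per length, the 5 subunit genes came to 151 ± 27.8 TPM in DMSO (SD, n = 4), 198 ± 31.6 with TNFα, 190.2 ± 29.1 with TMP195 and 208 ± 24.5 with TPCA-1. These ranges overlapped between all groups. Nfkbia, Nfkbib and Nfkbie together came to 293 ± 75.1, 835 ± 162, 768 ± 148 and 622 ± 152 TPM, and the DMSO range lay below all the others. The ratio of the IκB sum to the subunit sum was 1.92 ± 0.178 in DMSO and 4.19 ± 0.202 with TNFα. With TMP195 it was 4.02 ± 0.220 and with TPCA-1 2.98 ± 0.530. DMSO libraries (1.70 to 2.12) were all below the TPCA-1 libraries (2.67 to 3.78), which were all below those of TNFα alone (3.96 to 4.37), while TMP195 (3.73 to 4.22) overlapped TNFα alone. With the longest transcript as length the same ratios were 1.37, 3.10, 3.03 and 2.34. On that length TPCA-1 and TNFα alone barely separated, with libraries at 2.09 to 2.919 and 2.923 to 3.28. These sums are given as descriptions of RNA, with no test.

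**Figure D5:**
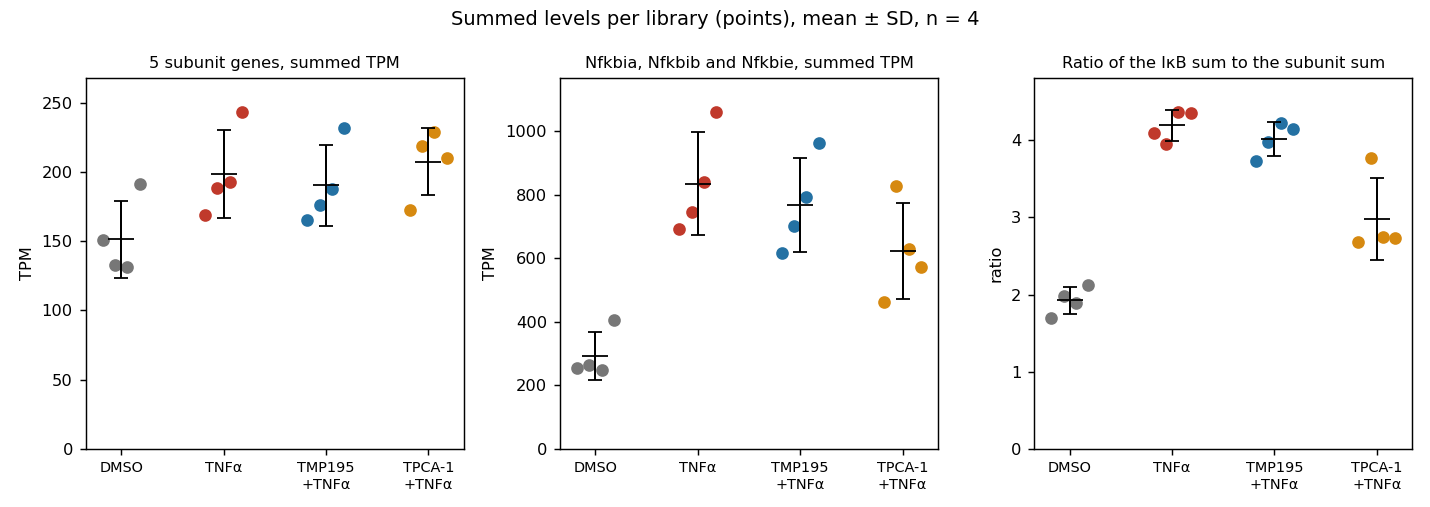
Summed TPM of the 5 subunit genes, of the 3 typical IκB genes, and the ratio of the IκB sum to the subunit sum, with points for libraries and bars for mean ± SD of 4 libraries. The ratio is lowest in DMSO, and 3 of the 4 TPCA-1+TNFα libraries lie close together, with the shallow library above them at 3.78.

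The make-up of the subunit sum shifted as well. Nfkb2 made up 17.5 ± 2.39% of it in DMSO, 29.3 ± 2.61% with TNFα, 27.4 ± 1.22% with TMP195 and 33.8 ± 1.88% with TPCA-1. Nfkb1 made up 17.9 ± 1.23%, 14.2 ± 1.27%, 12.4 ± 0.825% and 9.01 ± 1.02% in the same order. The Nfkb2 share was higher in every library given TNFα than in any DMSO library, and the Nfkb1 share with TPCA-1 (7.63 to 9.82%) lay below every other library. These shares depend on the length used. With the longest transcript Nfkb1 made up 36.1 ± 2.04%, 29.7 ± 2.27%, 26.6 ± 1.55% and 20.1 ± 2.02%, which made it the largest subunit share in DMSO, and Nfkb2 14.5 ± 2.15%, 25.2 ± 2.51%, 24.0 ± 1.20% and 31.0 ± 1.55%. The Nfkb1 share was again lower in every TPCA-1 library than in any other library. Nfkbie made up 4.43 ± 0.755% of the typical IκB sum in DMSO, 6.00 ± 0.306% with TNFα, 8.07 ± 0.531% with TMP195 and 4.63 ± 1.68% with TPCA-1. The TMP195 libraries had the highest Nfkbie shares, with no overlap with any other group.

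For each of the 7 genes called in TNFα against DMSO or in either inhibitor against TNFα alone, the 2 genes with the most similar pattern over the 16 libraries were found, by the root mean square difference of centred log2 CPM given in parentheses. They were Irak2 (0.11) and Rnf145 (0.12) for Nfkb1, Ehd1 (0.15) and Tmem63b (0.19) for Nfkb2, and Slc15a3 (0.12) and Tnip1 (0.14) for Relb. For the typical IκBs they were Ptpn1 (0.17) and St3gal1 (0.20) for Nfkbia, Acvrl1 (0.13) and Tnfrsf1b (0.17) for Nfkbib, and Ier3 (0.26) and Ppp1r12b (0.26) for Nfkbie. Nfkbiz was nearest to Rapgef5 (0.12) and Wdfy3 (0.15). By this difference, which is not scaled by a gene's own spread, Nfkbie had the least close neighbours of the 7 genes. Nfkbie also had the largest SD of the family over the 16 libraries, 0.96, against 0.26 for Nfkb1. Relative to these SDs, Nfkbie was closer to Ier3 (0.26) than Nfkb1 was to Irak2 (0.11). Ier3, an immediate-early survival gene, went from 13.4 CPM in DMSO to 73.5 with TNFα, 60.8 with TMP195 and 29.4 with TPCA-1, while Rapgef5 stood at 353, 334, 220.2 and 370 CPM in the order of the groups. Within the family the closest pairs were Rela with Bcl3 (0.25) and Nfkb2 with Nfkbib (0.26). The first value is close to the SD of Rela itself over the 16 libraries, 0.28 (Bcl3 0.46). Nfkb2 and Nfkbib each had an SD of 0.65, so the pairs are not equally close relative to their spread. When group means replaced single libraries, 2 of the 14 neighbours were the same, Ehd1 and Tnip1.

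The rest of the pathway was read from 4 lists of genes. Over all genes 10.9% were called higher with TNFα, 3% lower with TMP195, and 9.67% higher and 9.72% lower with TPCA-1, and a share of a list near these is no result about the list. Of all 12612 genes, TMP195 had 588 called higher and 621 lower with DESeq2, 953 and 825 with limma-voom, and 872 and 827 with the block. With TPCA-1 these were 1448 and 1447 with DESeq2 and 1635 and 1577 with limma-voom. Without the shallow library they were 919 and 1033. Of 19 receptors, adaptors and kinases, 6 rose with TNFα (median log2 fold change 0.20), among them Tnfrsf1b, a TNF receptor (1.02 ± 0.16), and Traf3, which restrains the non-canonical kinase (0.53 ± 0.09). TMP195 lowered 1, Map3k8, a kinase held by the Nfkb1 precursor (-0.46 ± 0.11, adjusted p = 0.0224, edgeR), where DESeq2 called 3 lower and limma-voom 3 lower and 1 higher. TPCA-1 raised 2 and lowered 4, with Map3k14, the kinase that triggers Nfkb2 processing, at 1.29 ± 0.25 (adjusted p = 0.0014) and Map3k8 at -0.55 ± 0.11. These counts were 1 and 3 without the shallow library and 4 and 6 with DESeq2. Of 12 genes of the ubiquitin ligase that removes phosphorylated IκB and of other regulators, TNFα raised 2, the scaffold Cul1 (0.39 ± 0.09) and the nuclear IκB Nfkbid (0.48 ± 0.15). TPCA-1 raised Nfkbid further (0.95 ± 0.15) and lowered Cul1 (-0.34 ± 0.09). TMP195 changed 0 of these 12 (1 at an unadjusted p under 0.05, 0 with DESeq2 and 1 with limma-voom).

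Of 12 feedback genes, TNFα raised 8 (median 0.54), led by Traf1, an adaptor (3.08 ± 0.17), and Birc3, a ubiquitin ligase (1.27 ± 0.14). TMP195 changed 0 of them with edgeR (6 at an unadjusted p under 0.05, 1 with DESeq2 and 5 with limma-voom). TPCA-1 raised 3 and lowered 3 (2 and 3 without the shallow library), including Tnfaip3, which encodes the deubiquitinase A20 (-1.13 ± 0.13), and N4bp1 (-0.69 ± 0.11). Of 19 tested textbook targets, TNFα raised 15 and lowered 1 (median 2.12), led by the chemokine gene Cxcl2 (5.27 ± 0.28) and Ptgs2, which encodes an enzyme of prostaglandin synthesis (5.15 ± 0.28). TMP195 raised 1, Csf1 (1.23 ± 0.26), and lowered 2, among them Ptgs2 (-1.15 ± 0.23). DESeq2 and limma-voom each called 2 higher and 4 lower. With the replicate number as a block, TMP195 had 2 targets called higher and 5 lower, 1 and 3 of the feedback genes, 1 and 0 of the ligase and regulator genes, and 1 and 3 of the receptors, adaptors and kinases. TPCA-1 lowered 11 and raised 1 (median -1.07), with Sod2 at -1.74 ± 0.18 and Tnf at -1.39 ± 0.16. Beside that list, the 10 NF-κB and IκB genes had 2 called lower and 0 higher with TPCA-1 by edgeR (5 at an unadjusted p under 0.05), where 9.67% of all genes were called higher. They had 2 lower and 0 higher with DESeq2, and 3 lower and 1 higher with limma-voom. The S100a8, Pecam1 and macrophage marker levels given above moved with these groups too, and their part was not tested.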

How the data were processed

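The series holds 16 libraries of total RNA from bone marrow-derived macrophages, 4 in each of 4 groups. The authors deposited whole-number counts per gene and strand from STAR 2.6.1d, per the submitters' processing notes, which name the builds mm10 and GRCm38; the annotation release is not given in the sources used here. Of 54838 gene identifiers, 54809 matched GENCODE release 21 of the mouse annotation, used for symbols, positions and lengths. The 4 header lines for unassigned reads were left out of the library sizes. The opposite-strand counts were used, and reads on the other strand were 3.19% to 3.72%. A floor of 3 counts is 0.0949 to 0.401 CPM, a limit for counting error alone, as the reads carry no molecular identifiers.

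Tests used edgeR 4.0.16 in R 4.3.3: quasi-likelihood F test (2-sided), TMM scaling, filterByExpr, 1 fit of all 16 libraries with a mean per group, and Benjamini-Hochberg adjustment over 12612 genes with a threshold of 0.05. Errors are SE for fold changes and SD for levels. The edgeR fit was tested on simulated counts, for TNFα against DMSO only. Alternatives were DESeq2 1.42.0, limma-voom with quality weights (limma 3.58.1), other scalings, no filter and unstranded counts. Further ones were fits of 2 groups, leaving out each library, and the replicate number as a block. Every limma-voom result given here used these weights, so libraries did not count alike in it. The labels do not say what the number marks. Group means were removed to see whether it pairs libraries. All 12 same-number pairs among DMSO, TNFα and TMP195+TNFα then correlated above 0.1 (0.27 to 0.681), so the number was taken to pair these. Pairs with TPCA-1+TNFα did not all do so. The main tests do not use the number. The block fit held all 16 libraries, and no block was fitted on the paired groups alone.

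The genes, lists and tests were chosen with earlier results of these data known. All 10 genes are named; of each pathway list, the 2 with the smallest adjusted p in a comparison may be named if past the threshold. Similar genes were sought among those with a mean of at least 5 CPM and a symbol that is no clone or predicted gene, on log2 CPM with a prior count of 2.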

Additional observations from a re-analysis of the deposited data

Results flagged for a closer look

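Of 40 sets of 4 libraries (10 genes in 4 groups), 2 held a library far from the other 3, with a gap to its nearest neighbour, as a share of the whole range on the log2 scale, above Dixon's critical value for 4 values. Chance alone flags about 5% of such sets, which is the share at which this limit is set. Nfkbia in DMSO was highest in DMSO 4 at 196 CPM, where the other 3 libraries held 121, 124 and 125 CPM (gap 0.938 of the range). Bcl3 in TPCA-1+TNFα was lowest in TPCA-1+TNFα 1 at 55.3 CPM, where the others held 82.8, 85.3 and 89.0 CPM (gap 0.849 of the range).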

How the results depend on the processing

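Of 60 fold changes (10 genes in 6 comparisons), 24 were called, and 19 of these kept their direction and call in every alternative run. The 5 that did not are the Relb, Bcl3 and Rela calls named as narrow in the text. The number of the 10 genes called with TMP195 against TNFα alone, 1, became 2 with DESeq2, 3 with limma-voom, 3 with only the 2 groups compared and 2 in a fit of all groups without the shallow library, an alternative chosen after seeing the data. Over all genes it was 750, and 1209 with DESeq2, 1778 with limma-voom, 894 with only the 2 groups and 1041 in the fit without the shallow library. It was 496 without TNFα 1, 485 without TNFα 4 and 446 without TMP195+TNFα 3. The number with TPCA-1 against TNFα alone, 2, became 4 with limma-voom. Over all genes 2446 became 3212 with limma-voom and 1552 with only these 2 groups. Leaving out 1 library at a time gave 4 to 5 of the 10 genes for TNFα against DMSO, 1 to 1 and 2 to 4 for TMP195 and TPCA-1 against TNFα alone, 2 to 4 for the direct comparison, and 5 to 7 and 5 to 8 for TMP195+TNFα and TPCA-1+TNFα against DMSO. Over all genes, leaving out 1 library gave 2317 to 2798 for TNFα against DMSO. It gave 446 to 597 and 1650 to 3313 for TMP195 and TPCA-1 against TNFα alone, and 2462 to 3888 in the direct comparison. Against DMSO it gave 2907 to 3287 for TMP195+TNFα and 2933 to 4492 for TPCA-1+TNFα. The cause was not tested.

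With the replicate number as a block the 10 genes had 5 calls for TNFα against DMSO (4034 over all genes). For TMP195 and TPCA-1 against TNFα alone they had 2 and 6 (1699 and 3835 over all genes). In the direct comparison they had 4 (4645 over all genes), and against DMSO 7 and 8 (4622 and 5185 over all genes). With TPCA-1 against TNFα alone the block added Nfkbia (-0.46, adjusted p = 0.0382), Rel (-0.38, 0.0468), Rela (0.27, 0.0415) and Bcl3 (0.57, 0.00562), and in the direct comparison Nfkb2 (0.55, 0.00738). In the comparisons with TPCA-1 the libraries share only a number, since 8 of 12 same-number pairs correlated above 0.1 (-0.043 to 0.511). Of 16 libraries, 15 correlated best with their own number, which is a hint from the data and not the design. Among the other groups the block changed no call of the 10 genes beyond those given in the text.

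Fold changes near 0 changed sign. Relb with TPCA-1 against TNFα alone was -0.090 with limma-voom and -0.0077 with no filter. Nfkbiz in that comparison was 0.13 with limma-voom, 0.065 with upper-quartile scaling, 0.015 with library totals and 0.0037 with unstranded counts. With limma-voom Bcl3 was 0.030 (TMP195+TNFα) and Nfkbiz 0.11 (TPCA-1+TNFα) against DMSO. Leaving out 1 library gave, for TNFα against DMSO, -0.094 to 0.069 for Nfkbiz and -0.023 to 0.40 for Bcl3; for TMP195 against TNFα alone, -0.033 to 0.20 for Rela and -0.23 to 0.031 for Relb; for TPCA-1 against TNFα alone, -0.24 to 0.19 for Relb, -0.0022 to 0.32 for Nfkbib and -0.091 to 0.13 for Nfkbiz. In the direct comparison it gave -0.16 to 0.27 for Relb, -0.044 to 0.24 for Rel and -0.26 to 0.10 for Nfkbib, and against DMSO -0.25 to 0.22 for Bcl3 (TMP195+TNFα) and -0.11 to 0.11 for Nfkbiz (TPCA-1+TNFα).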
